A study of Mus musculus with 8 samples.

Results

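Insulin and the insulin-like growth factors act on endothelial cells through a short chain of proteins whose transcripts are described here in lung endothelium of HF and LF mice. The set was chosen by name, with earlier results of these data known. It takes in receptors, substrates, kinases, FOXO factors and an IGF binding protein, and holds 10 genes of the 34899 in the deposited table. These are Insr, Igf1r, Irs1, Irs2, Pik3r1, Akt1, Akt2, Foxo1, Foxo3 and Igfbp3, and all 10 passed the filter on low values (10 normalised counts in 4 libraries), as did 17067 genes in all. Cells lacking CD45 and carrying CD31 had been sorted from the lungs of female C57BL6 mice, HF and LF, and 8 RNA-seq libraries were made, 4 per group. HF and LF are not spelled out in the labels, and obesity and vascular inflammation are named in the series title. Neither age nor length of treatment is given in the sources used here. No transgene or knockout is named for either group.

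At the membrane, the insulin receptor and the IGF-1 receptor are tyrosine kinases that phosphorylate the docking proteins IRS1 and IRS2. Phosphorylated IRS proteins recruit the regulatory subunit p85 of phosphoinositide 3-kinase, and the lipid made by that kinase brings the protein kinase AKT to the membrane to be activated. AKT phosphorylates FOXO transcription factors, which then leave the nucleus, so that genes driven by FOXO are active when insulin is low. In mouse endothelium this route controls nitric oxide synthase and vessel quiescence, and loss of endothelial Irs2 has been studied for its effect on insulin delivery to muscle and islets. IGFBP3 binds IGFs outside the cell and limits their access to the receptor.

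HF and LF values failed to overlap in 5.43% of all genes tested, and among the members in Irs2 alone. Its transcript was lower in HF than in LF, at 87.9 ± 15.7 in HF and 147 ± 23.2 in LF (normalised counts, reads divided by a size factor of the library, mean ± SD, n = 4 each), and the fold of HF over LF was 0.598 (0.441 to 0.810), with the 95% interval in parentheses. The difference did not pass the test over all genes (limma, adjusted p = 0.206). Neither its paralog Irs1, nor the receptors, Pik3r1, the AKT kinases, the FOXO factors or Igfbp3 separated the groups.

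Irs2 separated the groups and its paralog Irs1 did not. Irs1 also had the lower mean in HF, and their ratio within a library overlapped between the groups. The stretches of the mouse genome before the starts of Irs2 and Irs1 are shown. They are the 250 bases before the RefSeq start of each gene, read 5′ to 3′ along its own strand in GRCm38.p6, at chr8:11008930-11009179 (minus strand) for Irs2 and chr1:82291440-82291689 (minus strand) for Irs1. The RefSeq starts of both lie upstream of the GENCODE M21 gene ends used for positions here. Capitals mark 2 short motifs, CACGTG, known as an E-box, and TGTTTTG, the core of insulin response sequences that FOXO proteins bind in liver genes.
Irs2: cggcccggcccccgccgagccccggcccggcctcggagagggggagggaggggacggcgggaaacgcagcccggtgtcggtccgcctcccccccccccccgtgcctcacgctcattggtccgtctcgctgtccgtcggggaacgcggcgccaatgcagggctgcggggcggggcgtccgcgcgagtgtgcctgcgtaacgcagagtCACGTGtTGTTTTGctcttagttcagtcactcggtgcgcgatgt
Irs1: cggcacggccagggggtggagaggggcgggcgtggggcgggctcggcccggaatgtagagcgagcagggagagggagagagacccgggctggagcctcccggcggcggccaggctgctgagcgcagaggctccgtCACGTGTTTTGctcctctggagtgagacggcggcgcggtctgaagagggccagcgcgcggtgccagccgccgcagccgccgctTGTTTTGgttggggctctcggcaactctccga
In Irs2 the E-box lay at bases -44 to -39 from the start and TGTTTTG at bases -37 to -31, separated by 1 base. In Irs1 the E-box lay at bases -115 to -110 and its end overlapped the insulin response motif at bases -111 to -105. A second copy of that motif lay at bases -32 to -26. Searched on both strands, CACGTG was present in 6.02% of 32841 RefSeq promoter windows of the same length, TGTTTTG in 5.56%, and both in 0.295%. The FOXO consensus TGTTTAC (3.17% of windows) matched neither substrate gene and matched Akt1 at bases -161 to -155. The cAMP response element TGACGTCA (1.55%) matched no window of the members. The table held 14 windows for 9 of the 10 genes. These matches describe letters in the windows, and no binding was measured.

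Across the libraries, 14990589 to 20781564 reads were assigned to genes in HF and 10631506 to 15516831 in LF. Markers shared by all endothelium summed to between 191647 and 216532 in HF, against 141347 to 231872 in LF (12 genes, normalised counts), and Pecam1, which encodes CD31, was at 28252 ± 1063 in HF and 25381 ± 6906 in LF. Ptprc, which encodes CD45, was at 166 ± 72.8 in HF and 199 ± 59.0 in LF, Epcam of epithelium at 39.6 ± 11.2 in HF and 58.1 ± 36.7 in LF, the collagen gene Col1a1 at 163 ± 79.1 in HF and 239.6 ± 89.6 in LF and Acta2 of smooth muscle at 205 ± 56.2 in HF and 251 ± 24.8 in LF. RNA of other cells was therefore present in both groups. In sorted bulk samples, fewer cells of a type and less RNA per cell cannot be told apart. LF 1 and LF 2 stood apart from the other 6 libraries on the first principal component. On the second, LF 3 and LF 4 had the highest values. LF 1 and LF 2 also had reads in more genes (27177 and 27895, against 24935 to 26531 in the others), whose part was not tested. Values with each pair of LF libraries left out are therefore given, for members and named pathway genes whose sign or call depended on the pair or whose value moved by much. The pairs were picked from these same libraries, and the 2 LF libraries kept lay near each other on both components. Adjusted p values of these fits do not measure the spread of all 4 LF libraries, and their calls are descriptive. The percentage of reads from mitochondrially encoded genes was 0.633 to 0.710 in HF and 0.714 to 1.10 in LF, without overlap, and its part in the results was not tested.

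The receptors overlapped between the groups. Insr (ENSMUSG00000005534, chromosome 8 from 3122061 to 3279617 in GENCODE M21 on GRCm38) encodes the insulin receptor and was at 1166, 896, 983 and 893 normalised counts in HF 1 to HF 4, against 1155, 1154, 1055 and 869.6 in LF 1 to LF 4. The ranges overlapped almost entirely, with HF 1 the highest library and LF 4 the lowest. Its log2 fold change was -0.10 (SE 0.135; limma adjusted p = 0.774), a fold of 0.931 (0.759 to 1.14). Igf1r, on chromosome 7 from 67952827 to 68233668, encodes the IGF-1 receptor and was at 1485, 1115, 1659 and 1353 in HF, against 1852, 1601, 1276 and 1134 in LF. LF 1 was the highest of the 8 libraries, LF 4 was the second lowest after HF 2, and the HF values lay among the LF values except HF 2. Its fold was 0.965 (0.747 to 1.25) with an adjusted p of 0.917 by limma. The sign of the Igf1r difference depended on the LF libraries used: the log2 fold change was 0.21 with LF 1 and LF 2 left out and -0.31 with LF 3 and LF 4 left out (adjusted p of 0.626 and 0.144 by limma). For Insr it was 0.031 with LF 1 and LF 2 left out and -0.24 with LF 3 and LF 4 left out (adjusted p of 0.956 and 0.186 by limma).

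**Figure D1:**
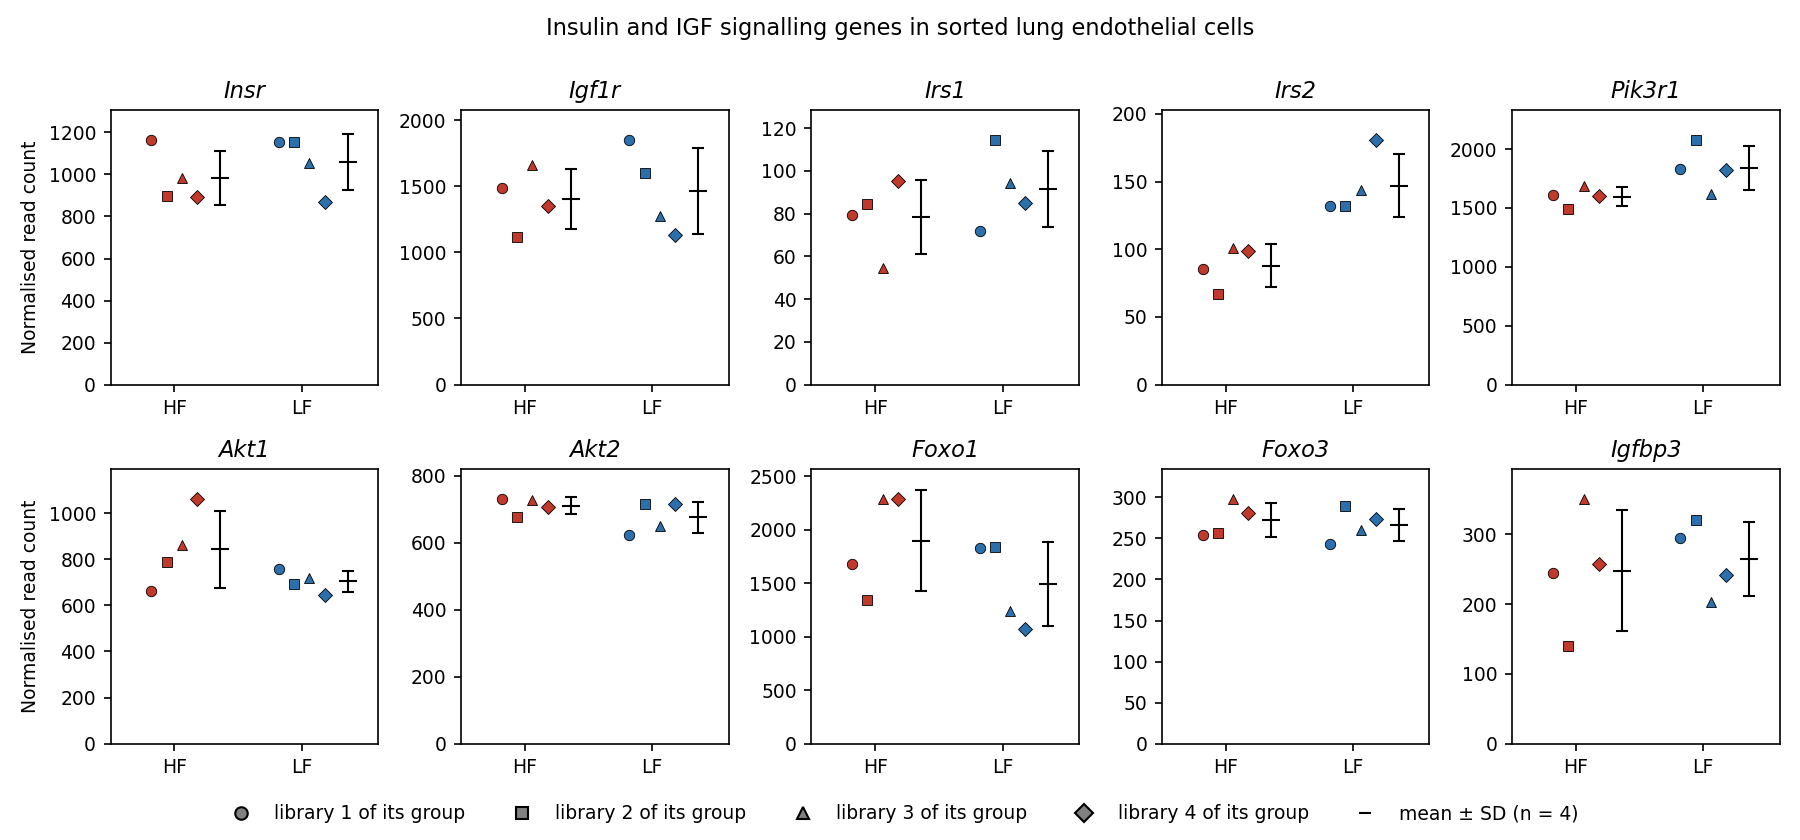
Normalised read count (vertical axes, each from 0) of the 10 genes in the 4 HF libraries (red, left) and the 4 LF libraries (blue, right); marker shapes give the library number and black bars the mean ± SD. For Irs2 the HF libraries sit between 66.7 and 101 and the LF libraries between 132 and 181, while the groups overlap for the other genes.

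Of the substrates, Irs2 (ENSMUSG00000038894, chromosome 8 from 10984681 to 11008458) was at 85.4, 66.7, 101 and 98.5 normalised counts in HF 1 to HF 4, against 132, 132, 144 and 181 in LF 1 to LF 4. The highest HF library, HF 3, lay below the lowest LF library, and LF 4 was the highest of all. Among all genes tested, the 4 HF values were all below the 4 LF values in 1.96% of genes, and groups failed to overlap in either direction in 5.43%, which is the background for 1 of 10 members. The log2 fold change was -0.74 (SE 0.202), with an unadjusted p of 0.00304 by limma, which ranked Irs2 at 250 of 17067 genes. The counts behind it were modest, 75 to 160 reads per library.

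Whether Irs2 was called depended on the test. limma and edgeR's quasi-likelihood test each called 0 of 17067 genes at an adjusted p under 0.05, with 1882 and 1905 genes (11.0% and 11.2%) at an unadjusted p under 0.05, and gave Irs2 adjusted p values of 0.206 and 0.216. DESeq2 on the recovered reads called Irs2 lower in HF (adjusted p = 0.0253), the only member among its 313 calls. Those calls were 2.17% of genes with an adjusted p, and 0.596% were called lower in HF. In the authors' deposited table, Irs2 has a log2 fold change of -0.74 (SE 0.217) and an adjusted p of 0.0365, and 2.04% of the genes with an adjusted p in the authors' deposited table are under 0.05. The other 9 members have adjusted p values of 0.494 (Pik3r1) or more in the authors' deposited table. The Irs2 log2 fold change was -0.89 with LF 1 and LF 2 left out and -0.60 with LF 3 and LF 4 left out (adjusted p of 0.0690 and 0.0946 by limma). With single libraries left out it ranged from -0.82 to -0.62, below 0 each time.

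Markers of cells other than endothelium mostly had the lower mean in HF as well. Smooth muscle and pericyte markers summed to between 2671 and 3099 in HF, against 3173 to 4946 in LF, with 9 of 10 genes lower in HF. Fibroblast markers summed to between 6467 and 9761 in HF, against 9528 to 12784 in LF (10 of 10 genes lower), lung epithelial markers to between 16605 and 25486 in HF, against 21253 to 35447 in LF (10 of 12) and leukocyte markers to between 3734 and 7108 in HF, against 6570.2 to 8152 in LF (11 of 11). Cd3e of the leukocyte list was at 0 in some library, and no marker of the smooth muscle, fibroblast and epithelial lists was. The part of these cells in the Irs2 difference was not tested. General capillary markers, by contrast, summed to between 101718 and 122423 in HF, against 74654 to 90766 in LF, and arterial markers to between 28540.4 and 35076 in HF, against 21638 to 26928 in LF, both without overlap. Sums of venous, aerocyte and lymphatic markers overlapped, with 4 of 6, 5 of 7 and 2 of 6 tested genes higher in HF.

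Irs1 (ENSMUSG00000055980, chromosome 1 from 82233101 to 82291416) overlapped between the groups. It was at 79.3, 84.4, 54.4 and 95.3 normalised counts in HF, against 72.0, 115, 94.3 and 84.8 in LF, from 56 to 124 reads per library. HF 3 was the lowest library and LF 2 the highest, and the other 6 lay between them. The fold was 0.853 (0.598 to 1.22) with an adjusted p of 0.721 by limma. Within a library, the log2 ratio of Irs2 to Irs1 was 0.11, -0.34, 0.88 and 0.046 in HF 1 to HF 4, against 0.86, 0.20, 0.60 and 1.08 in LF 1 to LF 4. The ratio overlapped between the groups, since HF 3, with the least Irs1, had the second highest value, and its mean was 0.17 ± 0.510 in HF and 0.69 ± 0.378 in LF. The ratio was not tested for a difference between the groups. Exons of Irs2 overlap 9530052E02Rik on the other strand, which was at 4.06 normalised counts in HF 1 and at 0 in the other 7 libraries. Exons of Irs1 and Foxo1 overlap Gm9747 and Gm20402 on the other strand, which are not analysed here, and the strand setting of the counting is not stated in the sources used here.

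Pik3r1, on chromosome 13 from 101680563 to 101768217, encodes p85α, the regulatory subunit through which IRS proteins engage phosphoinositide 3-kinase. It was at 1608, 1488, 1682 and 1598 in HF 1 to HF 4, against 1834, 2079, 1618 and 1821 in LF 1 to LF 4. The HF libraries lay close together, and of the LF libraries LF 3 alone fell within their range. The log2 fold change was -0.20 (SE 0.113), with an unadjusted p of 0.0998 and an adjusted p of 0.536 by limma. It was -0.11 with LF 1 and LF 2 left out and -0.29 with LF 3 and LF 4 left out (adjusted p of 0.750 and 0.0595 by limma).

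The AKT kinases overlapped between the groups. Akt1, on chromosome 12 from 112653821 to 112674884, the main AKT of endothelium in mice, was at 665, 786, 864 and 1063 in HF, against 758, 695, 718 and 646 in LF. HF 2, HF 3 and HF 4 were above every LF library and HF 1 was below 3 of the 4, so the coefficient of variation was 19.8% in HF and 6.64% in LF. The fold was 1.18 (0.951 to 1.47) (limma adjusted p = 0.557). Akt2, on chromosome 7 from 27591552 to 27640826, the isoform tied to insulin-stimulated glucose uptake in muscle and fat, was at 732, 676, 729 and 707 in HF, against 623, 716, 649 and 715 in LF. These 8 values kept within a narrow range, with coefficients of variation of 3.60% and 6.92% in HF and LF, and the log2 fold change was 0.075 with a 95% interval of -0.17 to 0.31 (limma adjusted p = 0.799). The log2 ratio of Akt2 to Akt1 averaged -0.23 ± 0.297 in HF and -0.059 ± 0.191 in LF, and its values overlapped.

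**Figure D2:**
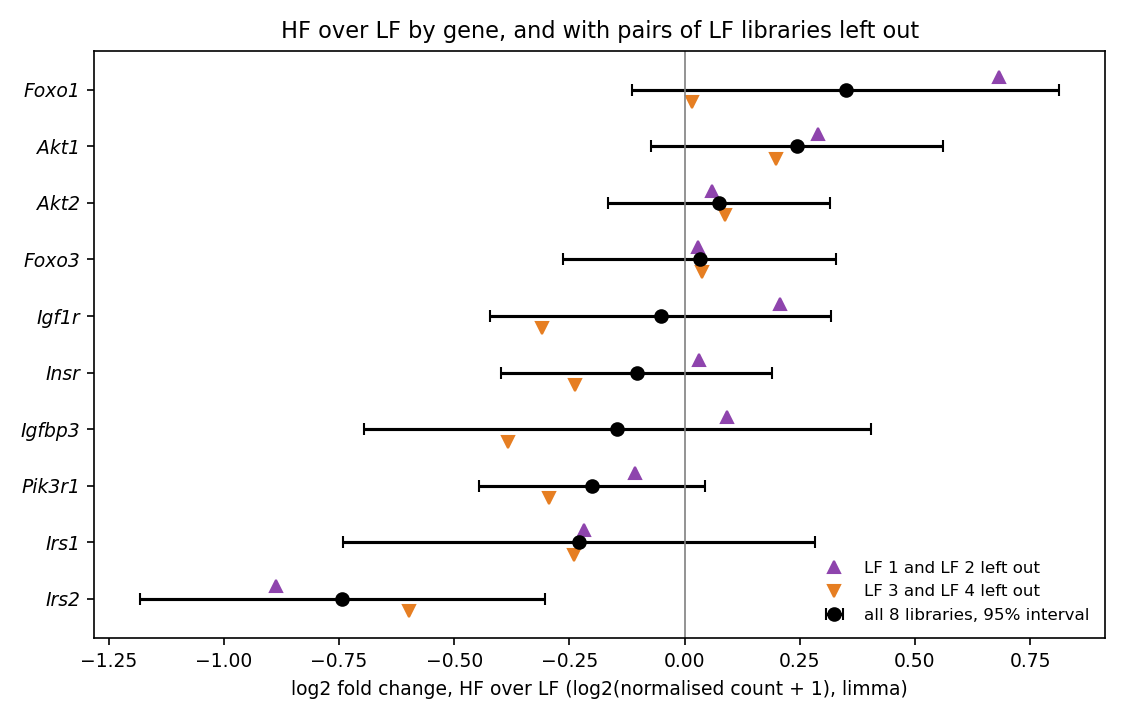
log2 fold change of HF over LF (horizontal axis, log2(normalised count + 1), limma) for each gene with its 95% interval from all 8 libraries (black), and the estimate with LF 1 and LF 2 left out (triangles up) or LF 3 and LF 4 left out (triangles down). The Irs2 interval alone lies off 0, from -1.18 to -0.30, and the Foxo1 estimate moves from 0.68 to 0.017 between the left-out pairs.

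Of the FOXO members, Foxo1 varied more between libraries than Foxo3. Foxo1, on chromosome 3 from 52268336 to 52353221, restrains endothelial growth and metabolism in mice and was at 1676, 1343, 2290.0 and 2289 in HF 1 to HF 4, against 1828, 1835, 1238 and 1077 in LF 1 to LF 4. HF 3 and HF 4 were above every LF library, LF 3 and LF 4 were below every HF library, and HF 1 and HF 2 lay below LF 1 and LF 2. The fold was 1.27 (0.924 to 1.76) with an adjusted p of 0.565 by limma. It rested on LF 3 and LF 4, as the log2 fold change was 0.68 with LF 1 and LF 2 left out and 0.017 with LF 3 and LF 4 left out (adjusted p of 0.0791 and 0.957 by limma). Foxo3, on chromosome 10 from 42181841 to 42276755, which shares many targets with Foxo1, was at 254, 257, 298 and 281 in HF, against 243, 289, 259.9 and 274 in LF. Its values spanned a narrow range in both groups, with a fold of 1.02 (0.833 to 1.26) (limma adjusted p = 0.935). The log2 ratio of Foxo3 to Foxo1 was -2.72, -2.38, -2.94 and -3.02 in HF, against -2.91, -2.66, -2.25 and -1.97 in LF, with LF 3 and LF 4 the highest.

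Igfbp3, on chromosome 11 from 7206086 to 7213923, was at 245, 139.5, 351 and 257 in HF, against 295, 321, 203 and 241 in LF. HF 2 was the lowest and HF 3 the highest library, so all 4 LF values fell inside the HF range. The fold was 0.904 (0.618 to 1.32) with an adjusted p of 0.830 by limma, and the log2 fold change changed sign with the LF pair, at 0.092 with LF 1 and LF 2 left out and -0.38 with LF 3 and LF 4 left out (adjusted p of 0.935 and 0.344 by limma).

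**Figure D3:**
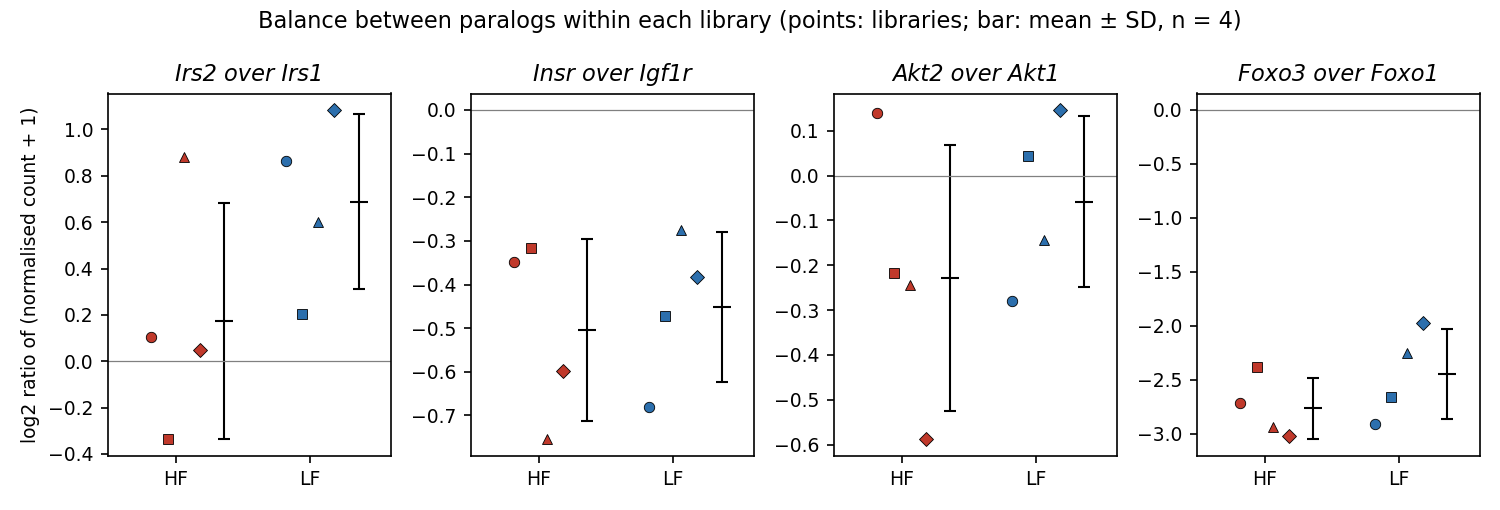
log2 ratio of the (normalised count + 1) of 2 paralogs within each library (vertical axes), for HF (red, left) and LF (blue, right), with black bars at the mean ± SD (n = 4). In all 4 pairs the values of the groups overlap, and the ratio of Insr to Igf1r averages -0.50 in HF and -0.45 in LF.

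The members were also set on a common scale, as normalised counts per kilobase of merged exons. Foxo1 (196), Akt1 (189) and Pik3r1 (170.2) were highest over the 8 libraries, and Foxo1 exceeded Akt1 in 5 of 8 libraries, so those neighbours did not separate. Akt2 (97.2), Igf1r (85.4), Igfbp3 (81.9) and Insr (74.3) came next. Among these, Igf1r exceeded Igfbp3 in 4 of 8 libraries and Igfbp3 exceeded Insr in 5. Foxo3 (35.6) lay below Insr in all 8. The substrates were the least abundant transcripts of the set. Irs2 was at 13.9 ± 2.49 in HF and 23.3 ± 3.67 in LF per kilobase, below Foxo3 in all 8 libraries, and Irs1 averaged 9.28 over all libraries, below Irs2 in all 8. Over all 17067 genes tested the median was 67.2 per kilobase, and 13.5% of genes were lower than Irs1 and 24.7% lower than Irs2. Exon lengths come from GENCODE M21 and take every annotated exon, so transcripts that use few of them are understated.

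**Figure D4:**
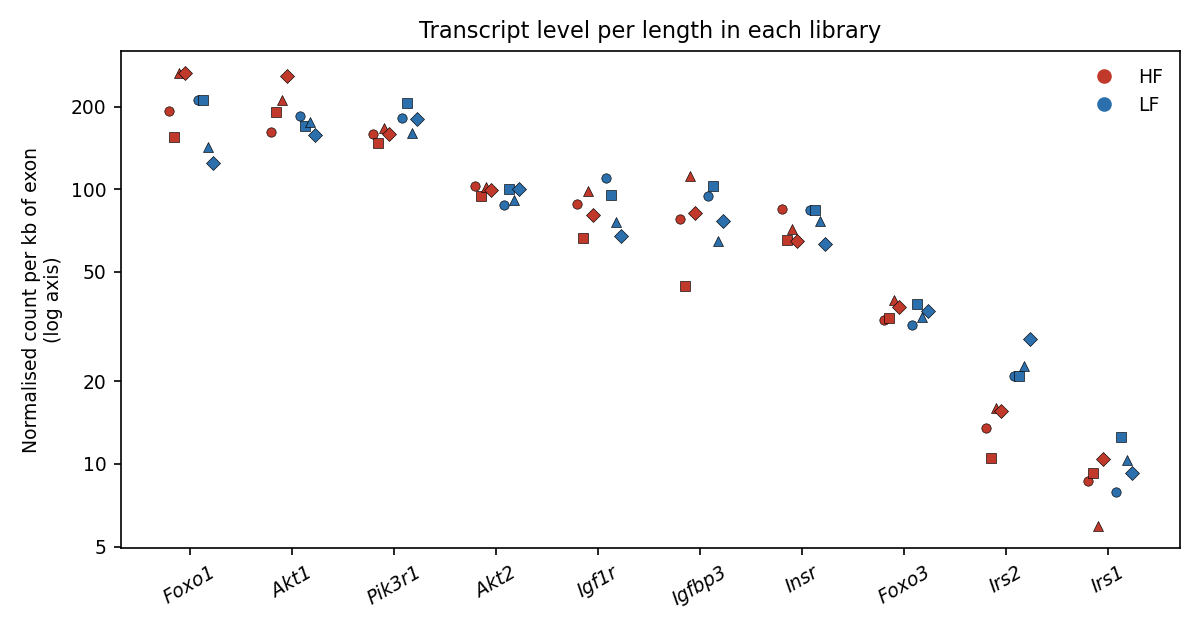
Normalised count per kilobase of merged exons (vertical log axis) in each HF (red, left) and LF (blue, right) library for the 10 genes, ordered by their mean over the libraries. The substrates Irs2 and Irs1 are lowest, at 18.6 and 9.28 on average, and Foxo1 is highest at 196.

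The members were also set beside all genes tested. Of the 10, 4 had the higher mean log2 value in HF and 6 the lower one, against 53.2% higher over all genes tested. Their median log2 fold change was -0.078, against 0.023 over all genes, and the median size of the change without its sign was 0.17 against 0.20. At an unadjusted p under 0.05 limma gave 1 of 10 members, where 11.0% of all genes did (0.0% at an adjusted p under 0.05). With either LF pair left out none of the 10 was called, where 4.14% and 21.0% of all genes were. At those shares, 10 genes are too few to read this as a difference.

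The rest of the pathway was read from a list of 92 further genes, of which 87 have a row and 83 were tested. limma called 0 of them with all 8 libraries and edgeR 0. At an unadjusted p under 0.05 there were 10 higher and 7 lower in HF, against 6.36% and 4.67% of all genes. DESeq2 called 2 of 81, Igf1 and Pik3cd, both lower in HF. Over all genes with an adjusted p, DESeq2 called 2.17% in either direction and 0.596% as lower in HF. Without LF 1 and LF 2 limma called 8 of 82, and without LF 3 and LF 4 it called 24 of 83, against 4.14% and 21.0% of all genes. Igf1, Igfbp2 and Socs1 were called in both, and Igf1 was lower in HF in both. Igfbp2 and Socs1, named after their values were seen, took opposite signs in the pair of fits. The log2 fold change of Igfbp2, an IGF binding protein, was 1.63 with LF 1 and LF 2 left out and -1.02 with LF 3 and LF 4 left out (adjusted p of 0.0138 and 0.0457 by limma), and that of Socs1, a cytokine-induced inhibitor, was 1.18 with LF 1 and LF 2 left out and -0.50 with LF 3 and LF 4 left out (adjusted p of 0.00310 and 0.0360 by limma). With all 8 libraries, the 4 HF values were all above the 4 LF values in 6 of 83 genes and all below in 3, against 3.47% and 1.96% of all genes tested.

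Among ligands, Igf1, the growth factor that activates Igf1r, was at 31.5, 21.3, 12.6 and 13.4 normalised counts in HF, against 31.7, 99.8, 61.2 and 57.7 in LF. All 4 HF values were below the 4 LF values, by a narrow margin between HF 1 and LF 1. The fold was 0.330 (0.182 to 0.596), with an adjusted p of 0.170 by limma and 0.00974 by DESeq2. The log2 fold change was -1.64 with LF 1 and LF 2 left out and -1.56 with LF 3 and LF 4 left out (adjusted p of 0.0464 and 0.0491 by limma). Igf1 is made in lung by fibroblasts and macrophages, and fibroblast and leukocyte markers had the lower mean in HF, with sums that overlapped. Their part in the Igf1 difference was not tested. Igf2 stayed under 5 normalised counts, and Ins1 and Ins2 were not analysed here.

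The other IGF binding proteins hold IGFs outside cells, and their list also counts the receptor gene Igf2r. This list was split, with 3 of 6 tested genes higher in HF (median log2 fold change 0.14) by limma. By edgeR and DESeq2 2 of 6 were higher, as both put Igfbp2 lower (-0.23 by edgeR, against 0.30 by limma). Igfbp4 was at 5798, 5999, 4991 and 6887 in HF, against 3761, 4096, 4769 and 4911 in LF, with every HF value above every LF value and a fold of 1.35 (1.10 to 1.66) (limma adjusted p = 0.271). Its log2 fold change was 0.28 with LF 1 and LF 2 left out and 0.58 with LF 3 and LF 4 left out (adjusted p of 0.321 and 0.0101 by limma). Igfbp7, an endothelial protein that binds IGFs weakly, was at 6889 ± 2559.8 in HF and 3901 ± 1582 in LF (limma adjusted p = 0.333), and Igfbp6 at 230.0 ± 53.2 in HF and 360.1 ± 104 in LF (limma adjusted p = 0.340). For Igfbp7 the log2 fold change was 1.22 with LF 1 and LF 2 left out and 0.42 with LF 3 and LF 4 left out (adjusted p of 0.0223 and 0.312 by limma). For Igfbp6 it was -0.34 with LF 1 and LF 2 left out and -0.91 with LF 3 and LF 4 left out (adjusted p of 0.610 and 0.0165 by limma).

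Around the receptor, 9 of 14 adaptors and inhibitors had the higher mean in HF (median log2 fold change 0.082). Grb2, the adaptor that links receptors to Ras, averaged 1072 ± 258 in HF and 607 ± 249 in LF, and its log2 fold change was 0.88 (SE 0.261; limma adjusted p = 0.232). Grb14, which binds the insulin receptor and inhibits its kinase, averaged 919 ± 158 in HF and 1184 ± 127 in LF, and its fold was 0.772 (0.623 to 0.955) (limma adjusted p = 0.359). Socs3, a cytokine-induced inhibitor that also binds the insulin receptor and IRS proteins, averaged 19806 ± 1764 in HF and 15309 ± 4919 in LF, and its fold was 1.34 (0.980 to 1.83) (limma adjusted p = 0.480). For Grb2, Grb14 and Socs3 the groups overlapped. Enpp1 of the same list, named after its values were seen, was lower in HF without overlap, at low counts. It was at 7.84 ± 5.29 in HF and 18.8 ± 4.65 in LF (limma adjusted p = 0.335). The Grb2 value depended on the LF pair, at 1.37 with LF 1 and LF 2 left out and 0.39 with LF 3 and LF 4 left out (adjusted p of 0.00369 and 0.178 by limma). So did the Socs3 value, at 0.12 with LF 1 and LF 2 left out and 0.72 with LF 3 and LF 4 left out (adjusted p of 0.818 and 0.00788 by limma).

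The PI3K list was evenly split, with 5 of 10 genes higher in HF (median log2 fold change 0.033). The gene called by DESeq2 was Pik3cd, the p110δ catalytic subunit best known in leukocytes, at 88.4, 100.4, 104 and 80.3 in HF, against 134, 175, 149 and 144 in LF. The groups did not overlap, and the fold was 0.623 (0.476 to 0.816) (adjusted p = 0.191 by limma and 0.0193 by DESeq2). All 11 tested leukocyte markers also had the lower mean in HF, with summed levels that overlapped, and their part in the Pik3cd difference was not tested. Its log2 fold change was -0.65 with LF 1 and LF 2 left out and -0.72 with LF 3 and LF 4 left out (adjusted p of 0.153 and 0.0439 by limma). The regulatory subunit Pik3r3 averaged 745 ± 97.4 in HF and 616 ± 78.1 in LF, and the inositol phosphatase Inpp5d averaged 2129.6 ± 236 in HF and 1878 ± 149.7 in LF.

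Downstream of AKT, 14 of 20 genes were higher on average in HF (median log2 fold change 0.071). Gsk3a, a kinase that AKT inhibits, was at 510.0 ± 146 in HF and 311 ± 114 in LF (limma adjusted p = 0.335). Rheb, the GTPase that activates mTORC1, was at 2594, 2869, 2830.2 and 3006 in HF, against 2069, 2029, 2483 and 2589.7 in LF, without overlap, and its log2 fold change was 0.31 (SE 0.120; limma adjusted p = 0.378). Deptor, which binds and inhibits mTOR, was at 449.9 ± 56.2 in HF and 576 ± 49.4 in LF (limma adjusted p = 0.347). The calls of all 3 depended on the LF pair. For Gsk3a the log2 fold change was 1.21 with LF 1 and LF 2 left out and 0.27 with LF 3 and LF 4 left out (adjusted p of 0.0120 and 0.385 by limma). For Rheb the values were 0.15 with LF 1 and LF 2 left out and 0.46 with LF 3 and LF 4 left out (adjusted p of 0.576 and 0.00997 by limma), and for Deptor -0.26 with LF 1 and LF 2 left out and -0.46 with LF 3 and LF 4 left out (adjusted p of 0.503 and 0.0397 by limma).

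Of the FOXO factors outside the set, Foxo4 averaged 54.5 ± 20.2 in HF and 87.3 ± 20.6 in LF and its fold was 0.606 (0.383 to 0.961) (limma adjusted p = 0.413), and Foxo6 stayed under 10 normalised counts. The nuclear exporter Xpo1, which carries FOXO proteins out of the nucleus, averaged 2453 ± 105 in HF and 2069.6 ± 416 in LF, and Skp2, a ubiquitin ligase subunit that targets FOXO1, averaged 132 ± 17.0 in HF and 105 ± 11.8 in LF. For Xpo1 the log2 fold change was 0.071 with LF 1 and LF 2 left out and 0.46 with LF 3 and LF 4 left out (adjusted p of 0.860 and 0.0173 by limma).

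Genes listed as FOXO targets had the higher mean in HF in 19 of 23 cases, against 53.2% over all genes, with a median log2 fold change of 0.15 against 0.023. Other lists were tilted alike, as 11 of 12 shared endothelial markers (median 0.19) and 11 of 12 immediate early genes (median 0.19), which are induced within minutes of stimulation, had the higher mean in HF. Immediate early genes summed to between 212001 and 225324 in HF, against 167530.0 to 224161 in LF, and their part in the FOXO target values was not tested. limma, edgeR and DESeq2 called no FOXO target with all 8 libraries. edgeR put 16 of 23 higher, against 48.8% of all genes, and DESeq2 16, against 48.5%. With LF 1 and LF 2 left out, limma put 14 of 23 higher, against 45.3% of all genes. It then called 2, Cited2 and Pink1, where 4.14% of all genes were called. With LF 3 and LF 4 left out it put 16 higher, against 53.7%. It then called 8, all higher in HF, among them Ccng2 and Txnip, where 21.0% of all genes were called. In 3 of the 23 every HF value was above every LF value, where 3.47% of all genes tested did so. One of these was Ccng2, an atypical cyclin linked to growth arrest, at 1953, 2247, 2123 and 1943 in HF, against 1489.7, 1592, 1544 and 1839 in LF. Its fold was 1.28 (1.08 to 1.52) (limma adjusted p = 0.269). Another was Txnip, which lowers glucose uptake and binds thioredoxin, at 13134, 15267, 12284 and 15833 in HF, against 9986, 7301, 12131 and 10933 in LF. The Txnip fold was 1.42 (1.09 to 1.83) (limma adjusted p = 0.309). With LF 1 and LF 2 left out the log2 fold changes of Ccng2 and Txnip were 0.29 and 0.29, and with LF 3 and LF 4 left out 0.42 and 0.72. The third was Sesn1, which restrains mTORC1, at 1221 ± 64.7 in HF and 1017 ± 67.6 in LF. Cited2, a transcriptional cofactor, had the largest fold among the tested targets, 2.10 (1.20 to 3.69), at 512 ± 224 in HF and 257 ± 145 in LF, with overlapping groups (limma adjusted p = 0.318). Its log2 fold change was 1.77 with LF 1 and LF 2 left out and 0.38 with LF 3 and LF 4 left out (adjusted p of 0.00716 and 0.375 by limma). Irs2 and Insr, which FOXO1 induces in liver, had the lower mean in HF.

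**Figure D5:**
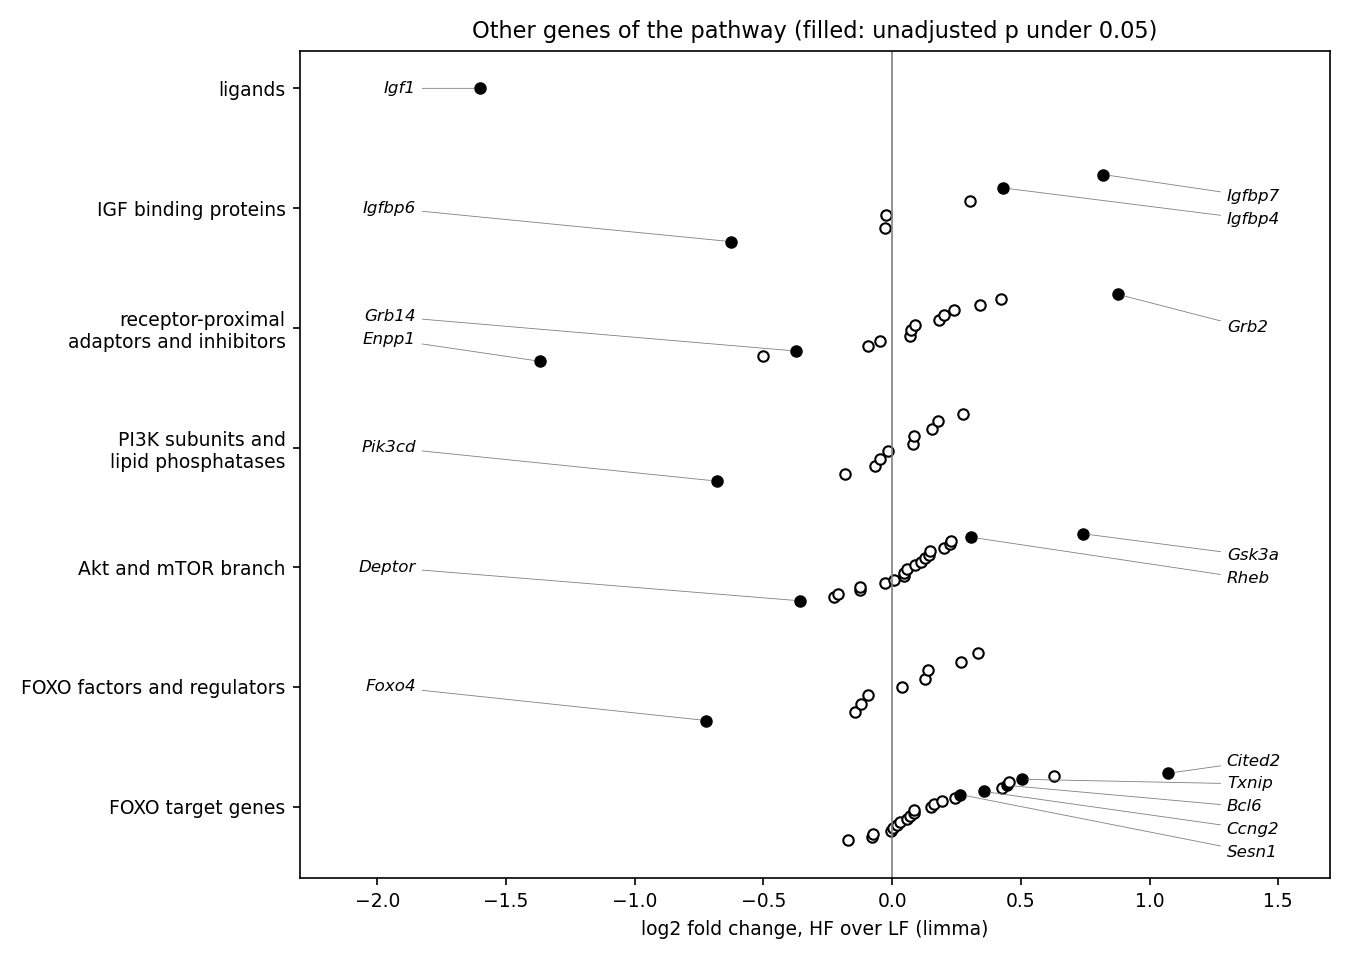
log2 fold change of HF over LF (horizontal axis, limma) for the 83 tested genes of the wider pathway by list (vertical axis, genes spread within each list for legibility); filled points have an unadjusted p under 0.05 and are named. Igf1 lies farthest to the lower side at -1.60 and Cited2 farthest to the higher side at 1.07, and none passed the adjusted threshold.

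Profiles over the 8 libraries were also matched to those of all tested genes, by the mean absolute difference of log2 values after each gene's own mean was taken away. Since the match used these same 8 libraries, the genes it found share the member's pattern by selection. Nearest to Irs2 were Cfap69 (0.129 log2 units), Gnao1 (0.133) and C1qtnf1 (0.138). Each of them was lower in HF without overlap, Gnao1 at 562, 430.1, 566 and 539 in HF, against 726, 622, 749.7 and 832 in LF. Nearest to Insr were Ercc6 (0.0421) and Cmtm4 (0.0530). Nearest to Foxo1 were Bmp1 (0.0774), Stk11 (0.0820) and Ppp1r12c (0.0837), which like it were lower in LF 3 and LF 4 than in LF 1 and LF 2. With LF 1 and LF 2 left out the log2 fold changes of Bmp1 and Stk11 were 0.75 and 0.74, and with LF 3 and LF 4 left out 0.21 and 0.018.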

How the data were processed

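RNA had been isolated with TRIzol LS and libraries made with a SMART-Seq kit, per the labels' protocols. STAR 2.6.1b, featureCounts 2.0.0 and DESeq2 1.24.0 are named in the submitters' processing notes, while the genome build, annotation and strand setting they used are not stated there. The deposited table gives each library's normalised count, a signal the authors made by dividing reads by a size factor, uncorrected for gene length. The deposited table's other columns, per the file headers, are the authors' log2 fold change (HF over LF), its SE, the Wald score and the p-value before and after adjustment. Whole reads were recovered (tolerance 0.01 reads, 100.0% of values). All 34899 gene IDs matched GENCODE M21, which gave positions, exon lengths and overlaps, and 24 symbols that had become dates were restored from it. Promoter sequences are from RefSeq (GRCm38.p6).

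Genes reaching 10 normalised counts in 4 or more libraries were fitted together with limma 3.58.1 (trend, log2(normalised count + 1), two-sided, Benjamini-Hochberg, adjusted p under 0.05, 12.3 degrees of freedom). Fold changes understate low genes. edgeR 4.0.16 and DESeq2 1.42.0 on recovered reads, scaling, pseudocounts, filters, weights, the replicate block and left-out libraries were alternatives. The members and lists were chosen with earlier results of these data known. Named from each list were the 3 genes with the smallest p among those with a group mean of at least 50, and 3 genes nearest in profile to each of Irs2, Insr and Foxo1; 1 gene this rule names is not reported here, and Sesn1 was added after its values were seen. No libraries agreed within sampling noise (chi-square per degree of freedom at least 10.2). Depth limits genes of low count, amplified reads without molecular identifiers are not independent molecules, and p-values measure the spread between these libraries.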

Additional observations from a re-analysis of the deposited data

Results flagged for a closer look

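One value stood far from the others of its group. Epcam, an epithelial marker used to check the sort, was at 56.4 normalised counts in HF 3 and between 33.1 and 35.5 in the other 3 HF libraries. Among 86 groups of 4 examined, this was the single one in which the gap to the nearest value, as a share of the range (0.894), passed Dixon's 95% critical value, where chance flags about 1 in 20. No member was among them.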

How the results depend on the processing

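Over 37 named genes and 739 refits under the alternatives, 698 kept their sign and side of the threshold, 27 newly passed it and 14 changed sign, and 30 genes never changed sign. limma called 0 genes over all with 8 libraries, 1 without the filter on low values, 669 with LF 1 and LF 2 left out and 3458 with LF 3 and LF 4 left out, and DESeq2 called 313. Leaving out single libraries gave 0 to 1. Of the wider pathway genes 2 were called by DESeq2, 8 with LF 1 and LF 2 left out and 24 with LF 3 and LF 4 left out, and of the members 1, Irs2, by DESeq2. The cause was not tested.

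With LF 1 and LF 2 left out, log2 fold changes took the other sign for Insr (0.031), Igf1r (0.21), Igfbp3 (0.092), Ercc6 (0.082) and Cmtm4 (0.093). Quantile normalisation did so for Akt2 (-0.031) and Foxo3 (-0.013). Leaving out single libraries moved Igf1r between -0.17 and 0.070, Foxo3 between -0.011 and 0.073, Igfbp3 between -0.34 and 0.10 and Cmtm4 between -0.16 and 0.0020. With all 8 libraries, the 95% intervals of these genes held 0. The Irs2 value ranged from -0.89 to -0.60 over its alternatives, with adjusted p values of 0.0253 to 0.535. The substrates rest on few reads, and Foxo1, with more reads, had as wide an SE (0.213, against 0.202 for Irs2).

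HF and LF libraries share replicate numbers. Deviations from the group means correlated at 0.11, -0.22, -0.14 and 0.18 for numbers 1 to 4. No pairing by number was seen, and so few values of mixed sign cannot exclude it. With the replicate number as a block limma called 0 genes, 0 members and 0 pathway genes, and Irs2 had an adjusted p of 0.332.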
